A study of Azumapecten farreri with 9 samples.

Results

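The 2 genes described here are a GADD45 alpha-like gene (evm.TU.scaffold14907.9, described in the deposited table as a growth arrest and DNA damage-inducible protein) and an EGR1-type gene (evm.TU.scaffold10271.2, early growth response protein 1-B-like). They are 2 of the 21617 genes of the table, and both were among the 11678 that passed the expression filter, an FPKM (fragments scaled for gene length and sequencing depth) of at least 1 in at least 3 libraries. Both were chosen by gene identifier with their values in these libraries already known. Their levels and differences are therefore given as a description, without a test. Hemocytes, the circulating immune cells of the scallop Azumapecten farreri, were sequenced as poly(A) RNA in 3 groups of 3 libraries. The groups, by title, were LPS_T and NOR_T from scallops injected with exosomes, which are small membrane vesicles released by cells, and PBS from scallops injected with buffer. The labels contradict each other on the exosomes: normal exosomes are the stated group of the LPS_T libraries, and exosomes after stimulation with LPS, the lipopolysaccharide of bacterial walls, that of the NOR_T libraries. The titles alone name the groups here, so whether a level went with stimulation is not said; a contrast of PBS with both exosome groups averaged is free of this doubt. Time after injection, dose, the source cells of the exosomes and the age of the scallops were not given in the sources used here. Whether each library was a different scallop or a pool is not in the labels. The p-values hence cover the spread seen among libraries, part or all of which may be technical. The 2 genes are measured in the same libraries and are not replicates of each other, and both comparisons with PBS share the same 3 PBS libraries.

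GADD45 proteins are small, acidic stress sensors. In mammals their genes are switched on by DNA damage, starvation and inflammatory signals, and the proteins bind and activate the kinase MEKK4 upstream of p38 and JNK, and restrain the cyclin B kinase that drives entry into mitosis. EGR1 is a zinc finger transcription factor and a classic immediate-early gene: in mammals it is transcribed within minutes of growth factor, stress or pathogen signals, without new protein synthesis, through the ERK kinases and serum response factor. Fos, Jun and ATF3 are leucine zipper factors of the same early class, and combine into AP-1 dimers.

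The 9 libraries held 19894628 to 45831950 estimated counts, and low counts came in steps of 3.63 to 3.79 per sequenced fragment, so that the libraries held about 5312317 to 12287386 fragments. PBS 1 stood apart. It had the lowest depth, and a pair of genes on scaffold38697 took 17.8% of its counts, while elsewhere they took 0.0318% to 0.0979%. FPKM values of its other genes are lowered by those counts, while TMM scaling (trimmed mean of M-values, factor 0.81 for PBS 1 and 0.99 to 1.06 elsewhere) offsets them in CPM (counts scaled to a common library total). Hemocyte-type transcripts were in part present: summed FPKM of laccase genes averaged 511.4 in LPS_T, 666.2 in NOR_T and 828.4 in PBS, that of soma ferritin 543.8, 479.6 and 372.2, that of integrin beta genes 190.3, 183.5 and 166.4, that of integrin alpha genes 216.2, 213.0 and 190.1, and that of peroxidasin 32.6, 29.1 and 17.3, in the same order. Scavenger receptors summed to 13.9 to 14.1, and the only lysozyme gene was near absent, at 0.065, 0.30 and 0.19. No gene description named phenoloxidase, transglutaminase, big defensin, hemocyanin or thymosin.

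The GADD45 alpha-like gene was highest in LPS_T, intermediate in NOR_T and lowest in PBS. Its FPKM was 457.2, 455.3 and 442.3 in the LPS_T libraries, 169.6, 167.6 and 165.3 in the NOR_T libraries, and 93.5, 119.8 and 124.7 in the PBS libraries. No library of one group reached into the range of another, and the LPS_T libraries lay far above the rest. Expressed as TMM-scaled CPM, the level was 690 ± 29.8 in LPS_T, 260 ± 6.04 in NOR_T and 194 ± 12.4 in PBS (SD, n = 3 each), so the coefficient of variation stayed between 2.32% and 6.43%. The log2 difference was 1.83 in LPS_T against PBS (3.57-fold, SE 0.06), 0.43 in NOR_T against PBS (1.35-fold, SE 0.06) and 1.41 in LPS_T against NOR_T (2.65-fold, SE 0.06). For both exosome groups together against PBS it was 1.13 (SE 0.05). Without PBS 1 these differences from PBS were 1.86 in LPS_T, 0.48 in NOR_T and 1.17 in both together. Summed FPKM of a ciliated epithelium marker list (105 genes) was likewise highest in LPS_T, at 675 to 686, with 286 to 306 in NOR_T and 288 to 521 in PBS; its part in this gene's level was not tested. In bulk RNA, fewer cells of a type and less RNA per cell cannot be told apart.

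The EGR1-type gene followed another order, with NOR_T highest and with LPS_T and PBS close to each other. Its FPKM was 1285, 1179 and 1244 in the LPS_T libraries, 2001, 2031 and 2085 in the NOR_T libraries, and 1028, 1294 and 1465 in the PBS libraries. All 3 NOR_T libraries were above all others, while the LPS_T values lay inside the PBS range by FPKM. On the TMM-scaled CPM scale the level was 4358 ± 165 in LPS_T, 7321 ± 295 in NOR_T and 5003 ± 399 in PBS (SD, n = 3 each). PBS 1 was the lowest PBS library by FPKM and the highest by CPM, at 5254 CPM against 4543 in PBS 2 and 5211 in PBS 3. By CPM the LPS_T libraries, at 4262 to 4549, met the PBS range only at its lower end. The log2 difference was -0.20 in LPS_T against PBS (SE 0.06), 0.55 in NOR_T against PBS (1.46-fold, SE 0.07) and -0.75 in LPS_T against NOR_T (0.60-fold, SE 0.07). For both exosome groups together against PBS it was 0.18 (SE 0.06). The LPS_T difference from PBS was -0.19 without PBS 1, and -0.08 when counts were scaled by library size only.

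**Figure D1:**
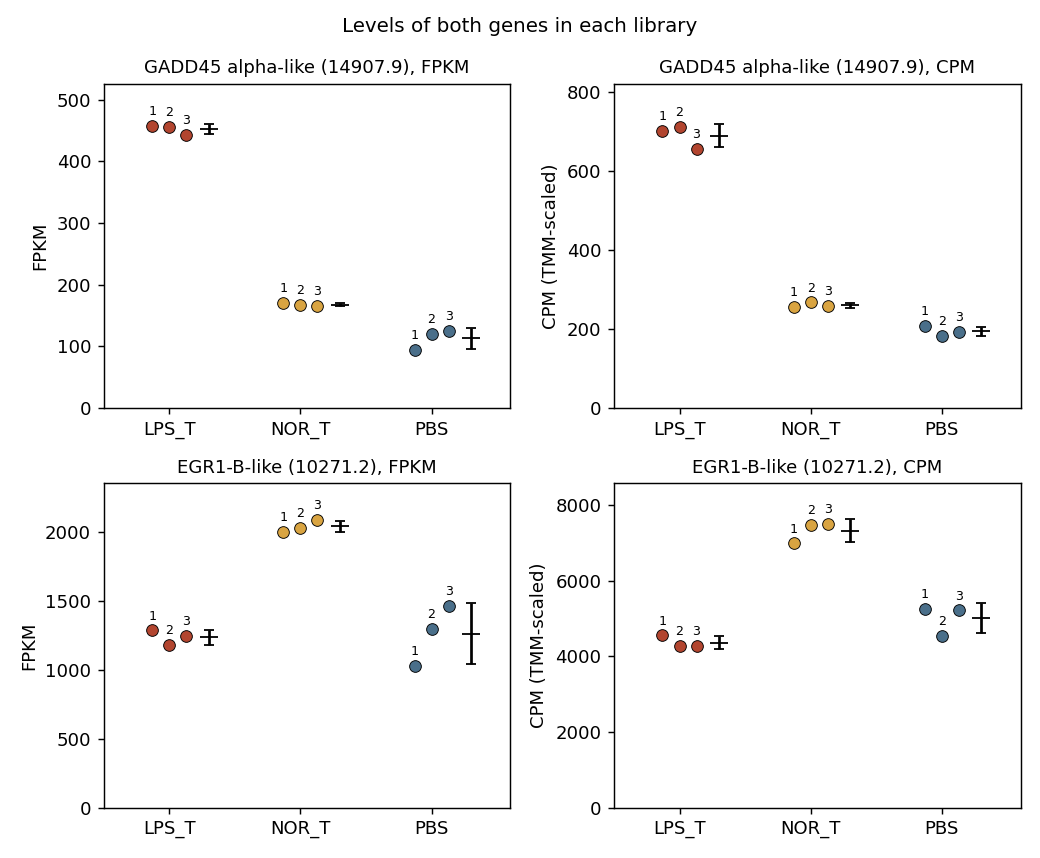
Levels of the GADD45 alpha-like gene (top) and the EGR1-type gene (bottom) in each of the 9 libraries, as deposited FPKM (left) and TMM-scaled CPM (right). Points are libraries numbered by replicate, and bars are the mean ± SD of 3; the GADD45 alpha-like gene is at 442.3 to 457.2 FPKM in LPS_T and at most 169.6 elsewhere, and the EGR1-type gene at 2001 to 2085 FPKM in NOR_T and at most 1465 elsewhere.

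Both genes were abundant. Ranked by mean FPKM over all 21617 genes, the GADD45 alpha-like gene was at place 223 in LPS_T, 456 in NOR_T and 583 in PBS, and the EGR1-type gene at place 86 in LPS_T, 48 in NOR_T and 82 in PBS. The EGR1-type transcript exceeded the GADD45 one in every library. The ratio of their FPKM was 2.59 to 2.81 in LPS_T, 11.8 to 12.6 in NOR_T and 10.8 to 11.7 in PBS. LPS_T thus differed from both other groups in this ratio, while NOR_T and PBS were adjacent without overlapping. Among the 11678 tested genes ordered from the highest log2 difference, the GADD45 alpha-like gene was at place 202 in LPS_T against PBS and 1699 in NOR_T against PBS, and the EGR1-type gene at places 7978 and 1204. The GADD45 alpha-like gene rested on about 886 to 7965 fragments per library and the EGR1-type gene on about 22528 to 77215.

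The GADD45 alpha-like gene lies at scaffold14907:139938-142309 on the plus strand (the genome build was not given in the sources used here). It is 1 of 4 annotated GADD45 copies within 95223 bases of that scaffold, and the copies may share reads that the authors' counting could split between them. The table gives its KEGG orthology number to 5 genes of the scaffold and places it in FoxO signalling. Its nearest neighbours were an alpha-like copy (evm.TU.scaffold14907.8) 45673 bases before it and another (evm.TU.scaffold14907.10) 12639 bases after it, followed by a beta-like copy (evm.TU.scaffold14907.12) and preceded by an actin gene with an FPKM of 0.21 to 1.06. The EGR1-type gene lies at scaffold10271:64413-69012 on the plus strand, is the only EGR gene in the table, and has a laminin-like gene (evm.TU.scaffold10271.3) and an uncharacterized gene as the next annotated genes after it. The laminin-like gene was low, at 0.78 to 1.57 FPKM in LPS_T, 0.19 to 0.47 in NOR_T and 0.44 to 1.44 in PBS. It fell by 1.69 on the log2 scale in NOR_T against PBS (edgeR adjusted p = 0.00430), where the EGR1-type gene was higher.

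The other GADD45 copies did not all move together. The alpha-like copy evm.TU.scaffold14907.10 had an FPKM of 52.8, 50.8 and 50.1 in LPS_T, 32.7, 37.9 and 34.1 in NOR_T, and 23.5, 29.2 and 26.9 in PBS. Its groups had the same order as the first gene and did not overlap by FPKM; by CPM NOR_T, at 67.9 to 83.0, overlapped with PBS, at 57.0 to 71.4. It rose in LPS_T against PBS by 0.77 on the log2 scale (SE 0.09, edgeR adjusted p = 1.05e-05) and was higher in LPS_T than in NOR_T by 0.53 (SE 0.09, adjusted p = 4.98e-04). Its difference in NOR_T against PBS was 0.25 (adjusted p = 0.0662), which passed the threshold without PBS 1 (0.35, adjusted p = 0.00808).

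The beta-like copy evm.TU.scaffold14907.12 had an FPKM of 97.2, 102.4 and 101.6 in LPS_T, 48.3, 55.9 and 47.9 in NOR_T, and 47.5, 60.6 and 58.4 in PBS. The LPS_T libraries stood apart, and the NOR_T and PBS ranges overlapped by FPKM but not by CPM, where NOR_T was at 66.4 to 81.0 and PBS at 81.9 to 95.5. It rose in LPS_T against PBS by 0.68 (SE 0.08, edgeR adjusted p = 1.44e-05) and was higher in LPS_T than in NOR_T by 0.96 (SE 0.08, adjusted p = 5.08e-07). In NOR_T against PBS it fell by 0.28 (adjusted p = 0.0259), a call that was lost without PBS 1 (-0.20, adjusted p = 0.0987), without NOR_T 1 or NOR_T 3, and with counts scaled by library size only. The third copy, alpha-like evm.TU.scaffold14907.8, had an FPKM of 36 to 38.8 in LPS_T, 37.9 to 43 in NOR_T and 24 to 36.5 in PBS. It passed the test in none of the 4 comparisons, with edgeR adjusted p-values of 0.0624 to 0.571.

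Of these 3 copies, 2 were higher in LPS_T against PBS, where 17.9% of all tested genes were called higher and 15.2% lower at an adjusted p under 0.05. Against NOR_T, LPS_T had 2 of the 3 copies higher, beside 12.6% of all tested genes higher and 8.89% lower. In NOR_T against PBS, 1 copy was lower, beside 11.4% of all tested genes higher and 13.5% lower. For both exosome groups together against PBS, 2 copies were higher, beside 14.6% of all tested genes higher and 15.0% lower, and the beta-like call of 0.20 (adjusted p = 0.0495) was lost in 7 of the 9 fits that left out 1 library. The GADD45 alpha-like gene first described held 70.1% to 71.1% of the summed FPKM of the 4 copies in LPS_T, 55.2% to 58.8% in NOR_T and 49.1% to 50.6% in PBS. The fifth gene with the same orthology number (evm.TU.scaffold14907.13, described as uncharacterized) had an FPKM of 8.55 to 10.2 in LPS_T, 6.47 to 7.33 in NOR_T and 4.42 to 6.99 in PBS, and was higher in LPS_T against PBS by 0.53 (edgeR adjusted p = 0.0145).

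**Figure D2:**
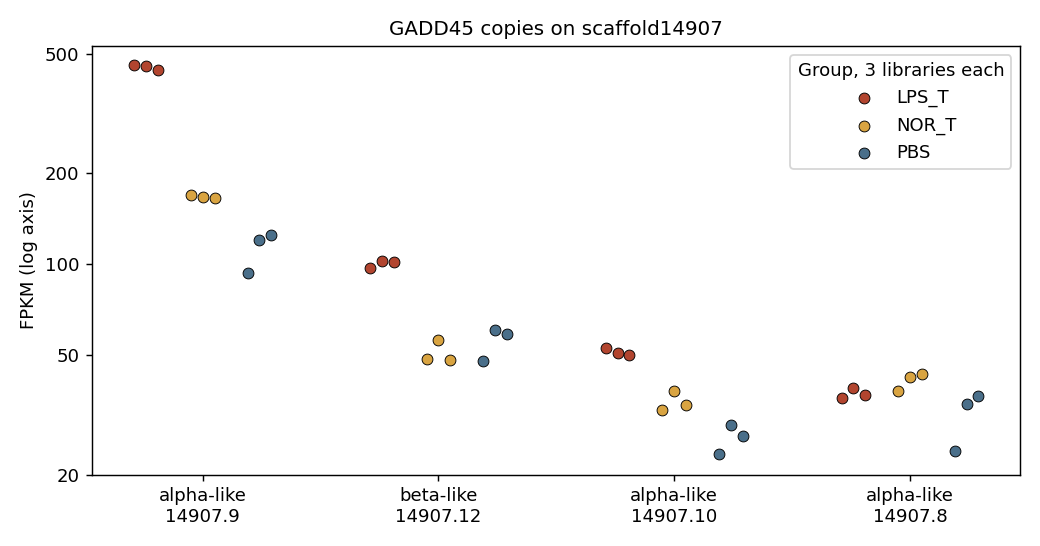
FPKM of the 4 GADD45 copies of scaffold14907 on a log axis, 3 libraries per group (LPS_T, NOR_T and PBS from left to right within each copy). The first alpha-like copy spans 93.5 to 457.2 FPKM over the libraries, and the alpha-like copy at the right spans 24 to 43, with overlapping LPS_T and NOR_T ranges.

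Kinases downstream of GADD45 in mammals were measured with the family in 1 list of 10 tested genes. The list includes the 3 other copies and leaves out the gene first described. The MEKK4 gene (evm.TU.scaffold18541.18) and a JNK-like gene (evm.TU.scaffold717925.1) did not pass the expression filter. In LPS_T against PBS 4 of the 10 tested genes were higher (40%) and 0 lower, beside 17.9% and 15.2% of all tested genes. Of these 4, 2 were the copies evm.TU.scaffold14907.10 and evm.TU.scaffold14907.12 described above. The median log2 difference of the list was 0.36, beside 0.03 over all tested genes. In NOR_T against PBS 0 were higher and 1, the beta-like copy, was lower, beside 11.4% and 13.5% of all tested genes. The median there was 0.09 beside 0.00 over all tested genes. Without PBS 1 that split was 2 higher and 0 lower. In LPS_T against NOR_T 3 were higher (30%) and 0 lower, beside 12.6% and 8.89% of all tested genes. At an unadjusted p under 0.05, 2 were higher in NOR_T against PBS and none lower in LPS_T against PBS; DESeq2 called 2 and 0, and limma 1 and 0. The MKK4-like gene (evm.TU.scaffold21411.59), a kinase that activates JNK and p38, had an FPKM of 27.1 to 30.4 in LPS_T, 20.9 to 22.2 in NOR_T and 15.5 to 21.6 in PBS. It was higher in LPS_T against PBS by 0.41 (edgeR adjusted p = 6.49e-05), and its difference in NOR_T against PBS was 0.00 (adjusted p = 0.987). A p38-type gene (mitogen-activated protein kinase 14-like, evm.TU.scaffold1425.1) had an FPKM of 56.3 to 65.8 in LPS_T, 52.3 to 55.3 in NOR_T and 38.2 to 41.1 in PBS. Its FPKM ranges did not overlap with PBS, but by CPM PBS 1, at 14.6, lay within the LPS_T range of 14.1 to 15.6, and its adjusted p was 0.0509 in LPS_T and 0.219 in NOR_T against PBS. Without PBS 1 these were 0.00192 and 0.0102. Another tested gene of the same description (evm.TU.scaffold24805.1) was outside the naming rule, and its level is not given here. The GADD45-interacting protein 1-like gene (evm.TU.scaffold61451.29), which in mammals binds GADD45 proteins and is also part of the mitochondrial ribosome, was at 8.58 to 9.86 FPKM in LPS_T, 10.1 to 11.7 in NOR_T and 7.03 to 12.4 in PBS and passed no test.

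Among the Fos, Jun and ATF3 genes, the most abundant followed the EGR1-type gene's order and an ATF3 gene followed the GADD45 order. The Jun gene of the table (transcription factor AP-1-like, evm.TU.scaffold59345.8) had an FPKM of 2227, 2336 and 2384 in LPS_T, 3344, 3459 and 3499 in NOR_T, and 2094, 2877 and 2967 in PBS. All NOR_T libraries were above the other 6. LPS_T lay inside the PBS range by FPKM, where PBS 1 is lowered, but below it by TMM-scaled CPM, at 1963 to 2102 in LPS_T, 2904 to 3171 in NOR_T and 2514 to 2663 in PBS. It rose in NOR_T against PBS by 0.24 (SE 0.06, edgeR adjusted p = 0.00641, but 0.0715 by limma on log2(FPKM + 1)) and was lower in LPS_T than in NOR_T, at -0.59 (SE 0.06, adjusted p = 1.49e-06). In LPS_T against PBS it fell by 0.36 (adjusted p = 2.01e-04), but by 0.24 with counts scaled by library size only (adjusted p = 0.0595), which does not pass. Under limma on log2(FPKM + 1) that difference was -0.18 (adjusted p = 0.387). By mean FPKM the Jun gene was gene number 33 in LPS_T, 17 in NOR_T and 26 in PBS.

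The Fra-1-like gene (fos-related antigen 1, evm.TU.scaffold64999.41), a Fos family partner of Jun, had an FPKM of 600.6, 590.9 and 563.5 in LPS_T, 822.2, 838.4 and 854.6 in NOR_T, and 495.2, 634.5 and 693.1 in PBS. NOR_T again stood above both other groups, and by CPM LPS_T, at 1339 to 1482, was below PBS, at 1544 to 1754. It rose in NOR_T against PBS by 0.32 (SE 0.06, edgeR adjusted p = 0.00163) and was lower in LPS_T than in NOR_T, at -0.54 (SE 0.06, adjusted p = 1.16e-05). Its fall of 0.22 in LPS_T against PBS (adjusted p = 0.0150) was lost without LPS_T 3 (adjusted p = 0.0725) and with counts scaled by library size only (adjusted p = 0.419). The c-Fos-like gene of the same scaffold (evm.TU.scaffold64999.35) was low, at 0.90 to 1.57 FPKM in LPS_T, 1.53 to 2.16 in NOR_T and 0.56 to 1.23 in PBS. It rose in NOR_T against PBS by 0.83 (SE 0.25, adjusted p = 0.0239), a call lost without PBS 1 (adjusted p = 0.0549), PBS 2 (adjusted p = 0.0709) or NOR_T 3 (adjusted p = 0.116).

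The ATF-3-like gene evm.TU.scaffold17725.37, a stress-inducible repressor in mammals, had an FPKM of 16.2, 14.9 and 12 in LPS_T, 3.9, 3.49 and 4.27 in NOR_T, and 1.23, 3.56 and 2.18 in PBS. LPS_T stood apart, and NOR_T overlapped with the upper end of PBS by FPKM, but not by CPM (2.42 to 2.89 in NOR_T and 1.18 to 2.36 in PBS). It rose in LPS_T against PBS by 2.48 (SE 0.27, edgeR adjusted p = 3.19e-06) and was higher in LPS_T than in NOR_T by 1.86 (SE 0.26, adjusted p = 4.95e-05). Its difference in NOR_T against PBS was 0.62 (adjusted p = 0.112). Both higher calls passed in all 18 alternative fits run for each. A second ATF-3-like gene (evm.TU.scaffold64999.36) was at 1.78 to 3.45 FPKM over all libraries and passed no test (adjusted p 0.419 to 0.996). Another (evm.TU.scaffold17725.39) was listed at 0.27 to 1.07 in LPS_T, 0 to 0.17 in NOR_T and 0.24 to 0.52 in PBS and was too low to be tested.

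The remaining Fos and Jun genes were low or unsteady. The Fra-2-like gene (evm.TU.scaffold19565.4) had an FPKM of 1.98 to 3.94 in LPS_T, 0.43 to 0.89 in NOR_T and 0.77 to 2.19 in PBS, and was higher in LPS_T than in NOR_T by 1.95 (SE 0.56, edgeR adjusted p = 0.0206). That call was lost without LPS_T 1 (adjusted p = 0.122), NOR_T 1 (adjusted p = 0.0541) or NOR_T 2 (adjusted p = 0.0755). A fosB-like gene (evm.TU.scaffold64999.38) at 0.69 to 1.62 in LPS_T, 0 to 0.28 in NOR_T and 0 to 0.71 in PBS, and a second c-Fos-like gene (evm.TU.scaffold60899.5) listed at 0 in 8 of 9 libraries, were not tested. A pair of short AP-1-like gene models had wide ranges, apart from the second in LPS_T: evm.TU.scaffold688871.1 was at 22.8 to 146.5 FPKM in LPS_T, 17.1 to 88.3 in NOR_T and 22.9 to 91.9 in PBS, and evm.TU.scaffold699173.1 at 39.2 to 47.5, 31.6 to 126.7 and 21.4 to 198.8. The calls of the second, -1.86 in LPS_T against PBS (adjusted p = 0.0244) and -1.38 for both exosome groups (adjusted p = 0.0420), were lost without PBS 1 (-1.15, adjusted p = 0.107, and -0.65, adjusted p = 0.327). Both may share reads with the full AP-1-like gene. The c-Fos-like, ATF-3-like, fosB-like, ATF-4-like and Fra-1-like genes of scaffold64999 lie within 115054 bases of each other.

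**Figure D3:**
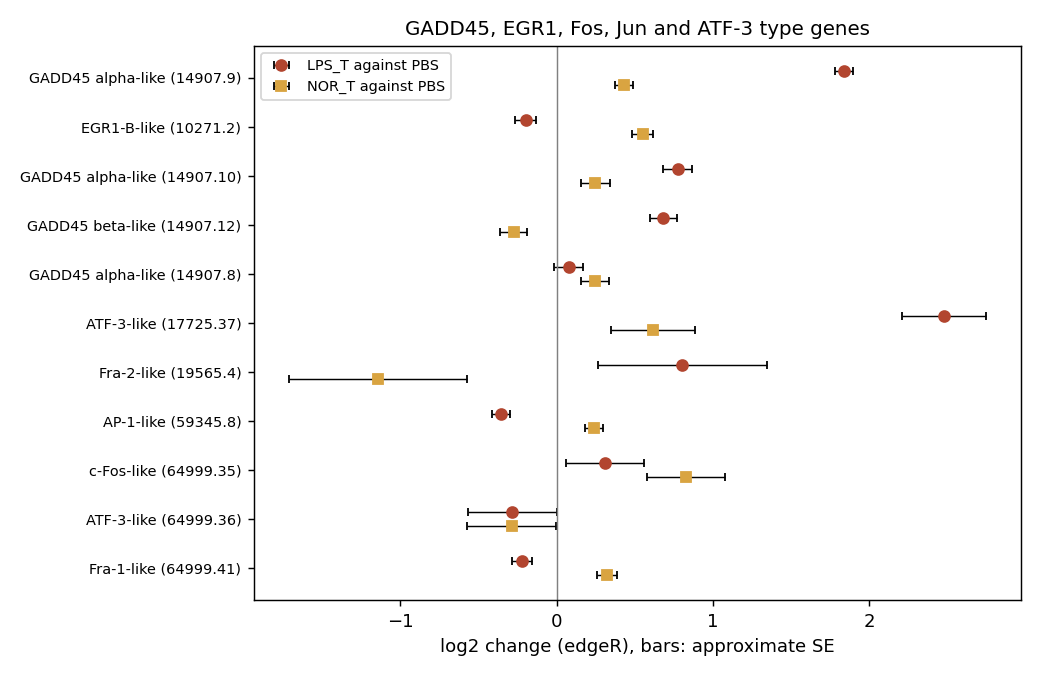
Log2 differences from PBS with approximate SE for the tested GADD45, EGR1, Fos, Jun and ATF-3 type genes, LPS_T (circles) above NOR_T (squares) in each row; the short AP-1-like models are left out. The first GADD45 alpha-like gene and the higher ATF-3-like gene reach 1.83 and 2.48 in LPS_T, and EGR1-B-like, AP-1-like and Fra-1-like are above 0 in NOR_T and below 0 in LPS_T; scaled by library size only, the LPS_T values are nearer 0, as -0.08 for EGR1-B-like and -0.11 for Fra-1-like.

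The wider list of AP-1 and ATF-type leucine zipper factors held 19 tested genes, the Fos, Jun and ATF3 genes included. In LPS_T against PBS 3 were higher and 8 lower (15.8% and 42.1%, beside 17.9% and 15.2% over all tested genes). In NOR_T against PBS 4 were higher and 2 lower (21.1% and 10.5%, beside 11.4% and 13.5%). The medians were -0.13 and -0.07. In LPS_T against NOR_T 4 were higher and 6 lower (21.1% and 31.6%, beside 12.6% and 8.89%). With counts scaled by library size only, the LPS_T split against PBS was 2 higher and 2 lower, and limma on log2(FPKM + 1) gave 2 and 0, so the lower calls depend on the scaling. The same held over all tested genes, with 2063 higher and 908 lower by library size, and 2085 and 1770 with TMM. An ATF-4-like gene (evm.TU.scaffold64999.39), a factor of amino acid and unfolded protein stress, had an FPKM of 271.3 to 275.9 in LPS_T, 336.3 to 343.2 in NOR_T and 255.4 to 373.0 in PBS. It fell by 0.43 in LPS_T against PBS (edgeR adjusted p = 1.33e-05), and its difference in NOR_T against PBS was -0.09 (adjusted p = 0.231). A CREB3L2-type gene (cyclic AMP-responsive element-binding protein 3-like protein 2, evm.TU.scaffold726873.1), a membrane-tethered factor of the secretory pathway, fell by 0.40 in LPS_T against PBS (adjusted p = 1.01e-04) and by 0.21 in NOR_T against PBS (adjusted p = 0.0164). Neither of its falls held with counts scaled by library size only, and the ATF-4-like fall was lost under limma on log2(FPKM + 1) (adjusted p = 0.237). Another tested ATF-4-like gene (evm.TU.scaffold63915.5) and another tested CREB3L2-type gene (evm.TU.scaffold64797.3) were outside the naming rule, and their levels are not given here.

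The list of EGR and other immediate-early factors held 14 tested genes beside the EGR1-type gene. Not all are immediate-early genes: it includes partners of EGR1, Krueppel-like repressors and some genes matched by name only. In LPS_T against PBS 3 were higher and 6 lower (21.4% and 42.9%, beside 17.9% and 15.2% over all tested genes). In NOR_T against PBS 3 were higher and 2 lower (21.4% and 14.3%, beside 11.4% and 13.5%). In LPS_T against NOR_T 0 were higher, at an unadjusted p under 0.05 and by DESeq2 and limma too, and 4 lower. The lower share was 28.6%, beside 12.6% higher and 8.89% lower over all tested genes. With counts scaled by library size only, 3 were higher and 3 lower in LPS_T against PBS. Over all tested genes that scaling gave 2063 higher and 908 lower, where TMM gave 2085 and 1770. Krueppel-like factor 3 (evm.TU.scaffold57011.109), a zinc finger repressor, had an FPKM of 67.7 to 74.7 in LPS_T, 79.9 to 84.6 in NOR_T and 79.0 to 110.9 in PBS and fell by 0.61 in LPS_T against PBS (edgeR adjusted p = 3.65e-06) and by 0.36 in NOR_T against PBS (adjusted p = 8.05e-04). Krueppel-like factor 12 (evm.TU.scaffold64279.6), another repressor of the family, was at 57.0 to 63.4 FPKM in LPS_T, 60.9 to 69.2 in NOR_T and 60.0 to 90.9 in PBS, and fell by 0.58 in LPS_T and by 0.45 in NOR_T against PBS (adjusted p = 1.20e-05 and 2.20e-04). Under limma on log2(FPKM + 1) the calls of Krueppel-like factor 12 were lost (adjusted p = 0.0945 and 0.259), as was that of factor 3 in NOR_T (adjusted p = 0.378). Krueppel-like factor 9 (evm.TU.scaffold56669.32), named after its values were seen, went the other way. It rose by 1.22 in LPS_T and by 1.16 in NOR_T against PBS (edgeR adjusted p = 0.00325 and 0.00626). Both calls passed in all 18 alternative fits. Krueppel-like factors 5 and 6 were also tested, and their levels are not given here.

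Some genes of this list are named although outside the naming rule, with values known, because in mammals they act on EGR1 or with it, or are early genes. Serum response factor (evm.TU.scaffold64905.20), which drives EGR1 transcription, had an FPKM of 5.39, 5.50 and 4.84 in LPS_T, 4.53, 4.17 and 3.98 in NOR_T, and 1.67, 2.50 and 2.35 in PBS. It rose in LPS_T by 1.11 (edgeR adjusted p = 1.29e-04) and in NOR_T by 0.82 (adjusted p = 0.00240). The EGR1-type gene's differences on the same scale were -0.20 in LPS_T and 0.55 in NOR_T, and a link between these levels was not tested. The serum response factor cofactor Elk-3-like (evm.TU.scaffold21603.25) rose by 0.41 in LPS_T (adjusted p = 1.06e-04) and by 0.30 in NOR_T (adjusted p = 0.00243). The NGFI-A-binding protein 1-like gene (evm.TU.scaffold42017.11), a corepressor that binds EGR proteins, was at 3.42 to 4.16 FPKM in LPS_T, 4.28 to 4.65 in NOR_T and 3.59 to 6.27 in PBS. It fell by 0.54 in LPS_T against PBS (adjusted p = 0.00553; 15 of 18 alternative fits kept the call), and its difference in NOR_T against PBS was -0.31 (adjusted p = 0.101). The antiproliferative BTG1-like gene (evm.TU.scaffold12189.8), at 991 to 1040 FPKM in LPS_T, 1398 to 1472 in NOR_T and 1079 to 1526 in PBS, fell by 0.58 in LPS_T against PBS (adjusted p = 1.65e-06).

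The ERK cascade, which induces EGR1 in mammals, and dual specificity phosphatases were measured in 1 list of 24 tested genes. Not all of these phosphatases act on ERK, and the list also holds an NF-kappa-B inhibitor-interacting Ras-like protein. In LPS_T against PBS 6 were higher and 1 lower (25.0% and 4.17%, beside 17.9% and 15.2% over all tested genes). In NOR_T against PBS 3 were higher and 0 lower (0 at an unadjusted p under 0.05, by DESeq2 and by limma). That higher share, 12.5%, was close to the 11.4% over all tested genes, of which 13.5% were lower. In LPS_T against NOR_T 1 was higher and 3 lower (4.17% and 12.5%, beside 12.6% and 8.89%). The phosphatase DUSP4-like (evm.TU.scaffold65017.14) had an FPKM of 11, 9.09 and 10.2 in LPS_T, 15.7, 15.1 and 16.3 in NOR_T, and 5.59, 5.95 and 7.30 in PBS. Its groups did not overlap, and NOR_T was highest, as for the EGR1-type gene. It rose in LPS_T against PBS by 0.51 (SE 0.11, edgeR adjusted p = 0.00227) and in NOR_T against PBS by 1.17 (SE 0.11, adjusted p = 2.02e-06), and was lower in LPS_T than in NOR_T, at -0.66 (adjusted p = 3.52e-04).

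DUSP1-like (evm.TU.scaffold10271.7), a phosphatase that acts on p38 and JNK in mammals, lies 111743 bases after the EGR1-type gene on the same scaffold. Its FPKM was 6.24, 5.52 and 5.78 in LPS_T, 2.30, 1.65 and 2.85 in NOR_T, and 2.04, 1.89 and 2.28 in PBS. LPS_T stood apart, and NOR_T and PBS overlapped, unlike its neighbour. It rose in LPS_T against PBS by 1.31 (SE 0.20, edgeR adjusted p = 1.16e-04), and its difference in NOR_T against PBS was -0.02 (adjusted p = 0.952). A further tested DUSP1-like gene (evm.TU.scaffold722311.1) was outside the naming rule, and its level is not given here.

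The p53 and DNA damage response, in which GADD45 genes are classic targets in mammals, was measured by 35 tested genes, of which 8 were higher and 2 lower in LPS_T against PBS (22.9% and 5.71%, beside 17.9% and 15.2% over all tested genes). Without PBS 1 the split was 7 higher and 4 lower. In NOR_T against PBS 3 were higher and 1 lower (8.57% and 2.86%, beside 11.4% and 13.5% over all tested genes). In LPS_T against NOR_T 4 were higher and 1 lower (11.4% and 2.86%, beside 12.6% and 8.89%). Sestrin-1-like (evm.TU.scaffold64559.39), a stress-induced inhibitor of growth signalling, had an FPKM of 264.4, 247.8 and 272.2 in LPS_T, 174.9, 172.6 and 176.4 in NOR_T, and 101.6, 136.6 and 136.9 in PBS. Its groups did not overlap and had the GADD45 order. It rose by 0.90 in LPS_T against PBS (SE 0.05, edgeR adjusted p = 3.50e-09) and by 0.34 in NOR_T against PBS (SE 0.05, adjusted p = 2.13e-04), and was higher in LPS_T than in NOR_T by 0.56 (adjusted p = 1.15e-06). REV1-like (evm.TU.scaffold4385.3), a DNA polymerase that copies past damaged bases, was at 12.6 to 13.3 FPKM in LPS_T, 11.6 to 12.5 in NOR_T and 6.87 to 9.80 in PBS. It rose by 0.49 in LPS_T and by 0.41 in NOR_T against PBS (adjusted p = 8.14e-04 and 0.00478). Cyclin-G1-like (evm.TU.scaffold30013.14), a p53 target in mammals named here after its values were seen, rose by 0.49 in LPS_T against PBS (adjusted p = 0.00200).

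The cyclin B kinase that GADD45 restrains in mammals was measured in a wider list of 17 tested cell cycle kinases, phosphatases and cyclins. In LPS_T against PBS 3 were higher and 0 lower (0 at an unadjusted p under 0.05, by DESeq2 and by limma), with a median of 0.27; the higher share, 17.6%, was close to the 17.9% over all tested genes. In NOR_T against PBS 1 was higher and 0 lower, where 2 were lower at an unadjusted p under 0.05 and 0 by DESeq2 or limma. That higher share was 5.88%, beside 11.4% higher and 13.5% lower over all tested genes. The 3 higher genes in LPS_T against PBS were the PLK1-like, CDK2-like and cyclin-B-like genes named below. The cyclin-dependent kinase 1-like gene (evm.TU.scaffold10719.22), the cyclin B kinase itself, was called in neither direction there. Nor were the other tested PLK1-like models (evm.TU.scaffold11157.9 and evm.TU.scaffold726815.1). PLK1-like (evm.TU.scaffold64639.9), a kinase of mitotic entry, had an FPKM of 4.34 to 5.25 in LPS_T, 3.19 to 3.48 in NOR_T and 2.15 to 3.43 in PBS and rose by 0.51 in LPS_T against PBS (edgeR adjusted p = 0.00356). CDK2-like (evm.TU.scaffold53111.125), a kinase of DNA replication, was at 9.46 to 10.3 FPKM in LPS_T, 5.99 to 8.28 in NOR_T and 4.75 to 7.27 in PBS and rose by 0.46 (adjusted p = 0.00859). The cyclin-B-like gene (evm.TU.scaffold40559.6), named after its values were seen as the partner of the kinase that GADD45 inhibits, rose by 0.54 in LPS_T against PBS (adjusted p = 6.33e-04). Summed FPKM of a gonad and gamete marker list (41 genes) moved in the same direction, at 1661 to 1763 in LPS_T, 1101 to 1172 in NOR_T and 1012 to 1412 in PBS; its part in the cell cycle genes was not tested. Over all 6 lists, 119 tested genes beside the 2 described ones, 27 were higher and 17 lower in LPS_T against PBS. These were 22.7% and 14.3%, beside 17.9% and 15.2% of all tested genes. In NOR_T against PBS the counts were 14 and 6 (11.8% and 5.04%, beside 11.4% and 13.5%). In LPS_T against NOR_T they were 15 and 15 (12.6% each, beside 12.6% and 8.89%). For both exosome groups together they were 21 and 14 (17.6% and 11.8%, beside 14.6% and 15.0%). The higher shares of NOR_T against PBS and of LPS_T against NOR_T were thus close to those of all tested genes. Scaled by library size only, the split in LPS_T against PBS was 25 higher and 7 lower, beside 2063 and 908 over all tested genes, where TMM scaling gave 2085 and 1770.

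**Figure D4:**
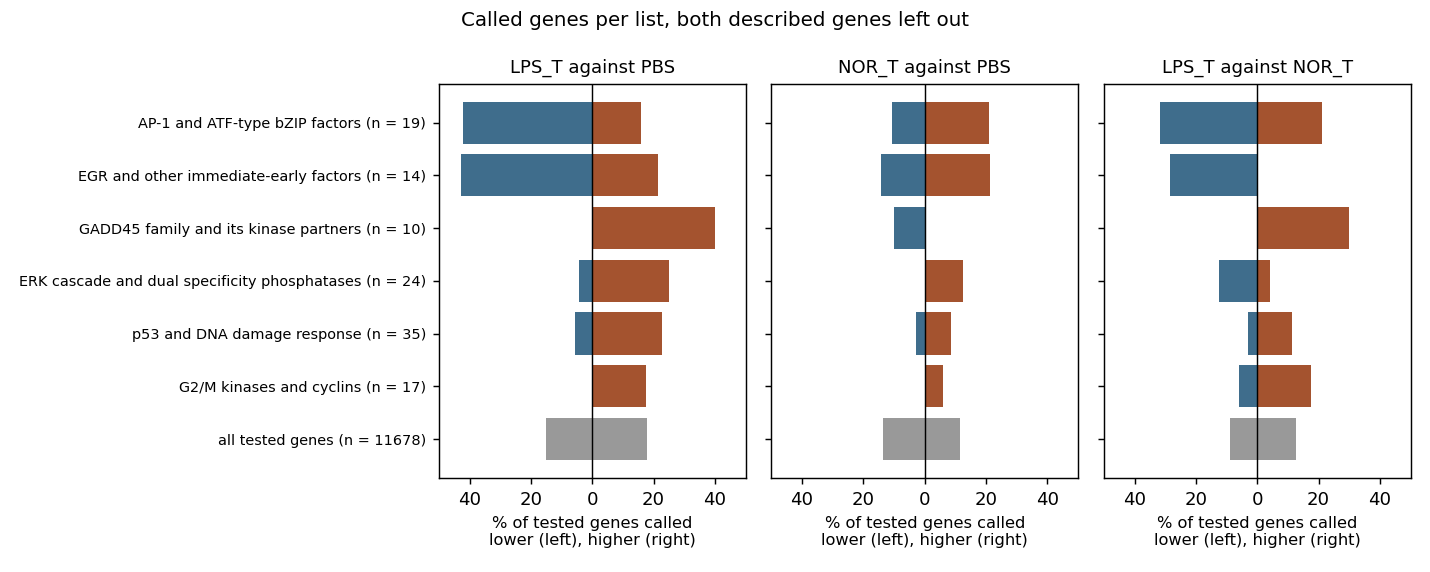
Share of the tested genes of each list called higher (right) or lower (left) at an edgeR adjusted p under 0.05, with the share over all 11678 tested genes in grey; the 2 described genes are left out. In LPS_T against PBS 40% of the GADD45 family and kinase list is higher, and 42.1% of the AP-1 and ATF list is lower, where scaling by library size only leaves 2 lower genes of 19. Over all 11678 tested genes it leaves 908 lower, where TMM gave 1770. Of the 4 higher genes in the GADD45 family and kinase list, 2 are GADD45 copies.

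The genes most like each of the 2 in pattern were taken by Pearson correlation of log2 CPM over the 9 libraries. The points fall into 3 groups and share library and scaling, so r mainly reflects the group levels and is given as a description. For the GADD45 alpha-like gene, 347 of 11677 other tested genes (2.97%) reached r of at least 0.9. The 5 described genes with the highest r were the SOCS2-like gene evm.TU.scaffold15767.29 (r = 0.999), a feedback inhibitor of cytokine receptors, a neuropeptide S receptor-like gene (evm.TU.scaffold9805.18, r = 0.998), an ETS-family factor (evm.TU.scaffold38105.4, r = 0.997), ETV6-like (evm.TU.scaffold52675.19, r = 0.997), an ETS repressor, and an acyl-CoA synthetase (evm.TU.scaffold46905.16, r = 0.996). The neuropeptide S receptor-like gene had an FPKM of 810.4, 816.6 and 787.9 in LPS_T, 301.3, 310.3 and 301.1 in NOR_T, and 164.6, 238.4 and 239.0 in PBS, the same order as the GADD45 alpha-like gene at a higher level. The ETS-family factor was at 408.4 to 425.7 FPKM in LPS_T, 107.3 to 112.5 in NOR_T and 59.7 to 83.4 in PBS. Its separation of LPS_T from NOR_T was wider, at 1.89 on the log2 scale.

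For the EGR1-type gene, 89 of 11677 genes (0.762%) reached r of at least 0.9. The 5 described genes with the highest r were sequestosome-1-like (evm.TU.scaffold11599.5, r = 0.993), an autophagy receptor for ubiquitinated cargo, a collagen alpha-6(VI)-like gene (evm.TU.scaffold61295.36, r = 0.987), heat shock protein 68-like (evm.TU.scaffold2569.4, r = 0.984), Dax1 (evm.TU.scaffold64853.5, r = 0.983), a nuclear receptor, and a partial heat shock 70 kDa protein (evm.TU.scaffold44765.1, r = 0.982). Sequestosome-1-like had an FPKM of 320.0, 298.9 and 324.1 in LPS_T, 545.4, 564.5 and 595.5 in NOR_T, and 249.6, 328.7 and 367.8 in PBS. Heat shock protein 68-like, a chaperone, was at 47.9, 51.7 and 49.5 FPKM in LPS_T, 137.2, 154.9 and 158.1 in NOR_T, and 60.9, 63.5 and 72.2 in PBS. Its groups did not overlap, and unlike the EGR1-type gene its LPS_T libraries lay below all PBS libraries. Heat shock 70 kDa genes have near-identical copies, so the split of reads among them is uncertain.

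The ciliated epithelium and gonad marker lists differed most between the groups, and the shares over all tested genes were 17.9% higher and 15.2% lower in LPS_T against PBS and 11.4% higher and 13.5% lower in NOR_T against PBS. Of 83 tested genes in a ciliated epithelium list, 49 were higher and 4 lower in LPS_T against PBS, and 3 were higher and 39 lower in NOR_T against PBS. Of 35 tested gonad genes, 12 were higher and 4 lower in LPS_T against PBS, and 1 was higher and 15 lower in NOR_T against PBS. The nerve list (125 genes, 24 tested) summed to 1586 to 1632 in LPS_T, 1282 to 1298 in NOR_T and 893 to 1224 in PBS, and had 5 genes higher and 4 lower in LPS_T and 4 and 3 in NOR_T, against PBS, which for LPS_T (20.8% and 16.7%) is close to those shares; the neuropeptide S receptor-like gene is in this list. The muscle list (54 genes, 39 tested) summed to 6847 to 7204, 6992 to 7449 and 4804 to 7173, with 9 higher and 2 lower in both LPS_T and NOR_T against PBS. In LPS_T against NOR_T 3 muscle genes were higher and 3 lower (7.69% each, beside 12.6% and 8.89% of all tested genes). The hemocyte list (47 genes, 16 tested) summed to 1475 to 1554, 1529 to 1629 and 1181 to 1797, with 4 higher and 2 lower in LPS_T and 3 and 2 in NOR_T. No gene of these lists was at 0 in all libraries of the series. The part of these cell types in the levels of the GADD45 alpha-like and EGR1-type genes was not tested.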

How the data were processed

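The 9 hemocyte libraries were poly(A), paired-end and, per the labels' protocols, of a kit without strand marking, so reads of overlapping antisense genes cannot be told apart. HISAT, StringTie and edgeR are named in the submitters' processing notes, without versions. The deposited table gives, per the file headers, an estimated count per gene and library, not normalized, and an FPKM, scaled by the authors for gene length and depth. Build and counter: not given in the sources used here. Counts were rounded to whole numbers. edgeR 4.0.16 (R 4.3.3; TMM, quasi-likelihood test, 1 mean per title group, all 9 libraries) was run on the genes that reached an FPKM of 1 in 3 or more libraries, with Benjamini-Hochberg adjusted p under 0.05 over all of them. SE is the absolute log2 difference divided by the square root of F. The test was checked on simulated counts.

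The 2 genes and all lists were chosen with earlier results of these data known, so no list test was run. Lists were matched to descriptions by text, which missed the fosB-like gene and also caught genes outside the named families. Among these were C/EBP zeta, a SRF-binding protein, a myc promoter-binding protein, a myc box-dependent-interacting protein and an NF-kappa-B inhibitor-interacting Ras-like protein. Named genes were both genes; every GADD45, EGR, Fos, Jun or ATF3 gene; the 2 genes of each other list with the smallest adjusted p for both exosome groups against PBS; the 5 described genes most correlated with each; and the 2 nearest neighbours on each side. Others are marked as chosen after their values were seen. Replicates of a group differed by 2.26 to 10.1 times sampling noise (median chi-square per gene), so none was a repeat deposit. Alternatives were RLE and library size scaling, no filter, DESeq2 1.42.0, limma 3.58.1 on log2(FPKM + 1) and log2(FPKM + 0.1), only the groups compared, a replicate block, each library left out and, chosen after seeing the data, counts divided by the counts per fragment.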

Additional observations from a re-analysis of the deposited data

How the results depend on the processing

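Neither gene's log2 difference changed sign in any comparison under any alternative run. Under library size scaling, limma on log2(FPKM + 1) and limma on log2(FPKM + 0.1), in that order, the GADD45 alpha-like gene differed from PBS by 1.24, 1.29 and 1.30 for both exosome groups, 1.95, 2.00 and 2.01 in LPS_T, and 0.52, 0.58 and 0.58 in NOR_T. The EGR1-type gene differed from PBS by 0.28, 0.34 and 0.34 for both exosome groups and by -0.0813, -0.0167 and -0.0167 in LPS_T, and by 0.71 and 0.71 in NOR_T under the 2 limma settings. These settings also moved the median of all tested genes, from PBS by 0.10, 0.15 and 0.18 for both exosome groups, 0.13, 0.17 and 0.21 in LPS_T, and 0.08, 0.12 and 0.16 in NOR_T. Leaving out 1 library gave 1.79 to 1.87 in LPS_T and 0.39 to 0.48 in NOR_T against PBS for the GADD45 alpha-like gene, and -0.26 to -0.17 and 0.48 to 0.59 for the EGR1-type gene.

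Genes called by limma with pseudocounts 1 and 0.1 numbered 2107 and 1841 for both exosome groups against PBS (edgeR 3449), 2467 and 2172 in LPS_T against PBS (3855), 1343 and 1212 in NOR_T against PBS (2903), and 1413 and 1211 in LPS_T against NOR_T (2509). Listed genes called lower under library size scaling and both limma settings numbered 2, 0 and 0 for both exosome groups (14 with TMM), 7, 3 and 2 in LPS_T (17), 3, 0 and 0 in NOR_T (6), and 6, 7 and 6 in LPS_T against NOR_T (15). Lower calls over all tested genes also fell under library size scaling. They numbered 904, 908, 924 and 491 in the same order of comparisons (1747, 1770, 1572 and 1038 with TMM). Listed genes called higher under both limma settings numbered 8 and 8 in NOR_T against PBS (14) and 9 and 8 in LPS_T against NOR_T (15), and 9 (without NOR_T 3) to 15 in NOR_T against PBS with 1 library left out. The cause was not tested. Replicate numbers did not pair the libraries (correlations of same-numbered deviations -0.02 to 0.08); with the replicate block 3755 genes were called in LPS_T against PBS and the GADD45 alpha-like difference was 1.83. As shares of counts in place of FPKM, the ciliated list was at 0.156% to 0.161% in LPS_T, 0.0636% to 0.0685% in NOR_T and 0.0717% to 0.113% in PBS. Low genes such as c-Fos-like and Fra-2-like, near 1 FPKM, are limited by depth.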
